A study of Mus musculus with 8 samples.

Results

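The genes described here are 9 genes of the ephrin and Eph receptor families, taken from the table of read counts by their symbols. They are 4 ephrin genes (Efna1, Efna4, Efnb1 and Efnb2) and 5 receptor genes (Epha2, Epha4, Ephb2, Ephb4 and Ephb6), of the A class as well as the B class, and make up 9 of the 54532 genes in the table and 9 of the 22 genes of both families. The RNA came from BMDMs (bone marrow-derived macrophages, grown out of marrow with the growth factor M-CSF) of wild type (WT) and Gsdmd-/- mice, with 4 libraries per genotype. Gsdmd encodes gasdermin D, the pore-forming protein of pyroptosis. All cells were differentiated for 6 days. The paper names no treatment for the sequenced cells and does not say whether a further incubation in medium followed. The methods give female C57BL/6J mice of 6 to 8 weeks as the source of BMDMs, without naming a genotype there. They state that WT mice were purchased and that Gsdmd-/- mice were a gift, so genotype and source of the mice cannot be told apart. The labels do not say whether the libraries of a genotype came from separate mice, and p-values then measure only the spread between these libraries.

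Ephrins are ligands held on the cell surface, ephrin-A proteins by a lipid anchor and ephrin-B proteins by a transmembrane stretch, and Eph receptors are receptor tyrosine kinases. Binding takes place where cells touch. It starts a forward signal in the cell with the receptor and a reverse signal in the cell with the ligand, and both reach the actin cytoskeleton, so that cells attach, spread or pull apart. The pair of ephrin-B2 and EphB4 is best known from the border of arteries and veins, and it also works between osteoclasts, which belong to the macrophage lineage, and osteoblasts.

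Total counts ranged from 16210182 to 16659319 in WT and from 14935114 to 16794810 in Gsdmd-/- libraries, and a count of 0 allows up to 3 counts, or 0.179 to 0.201 CPM (counts per library size) before scaling, for counting error only. Gsdmd itself had 1213, 1039, 1121 and 1570 reads in WT 1 to 4, and the Gsdmd-/- libraries had 307, 243, 257 and 241 (log2 fold change -2.22, standard error 0.139, edgeR adjusted p = 4.67e-05). In all 8 libraries the 8 macrophage markers listed (Adgre1, Csf1r, Cd68, Itgam, Mertk, Fcgr1, Cd14 and Lyz2) were expressed, with a summed level of 15340 to 23464 CPM, which are counts brought to a common library size with TMM scaling. WT 2 and WT 3 stood apart from the 6 other libraries on the first principal component, with scores of 45.4 and 38.8 against -25.9 to -7.19. Values without that pair are given beside the results that rest on it.

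The 9 genes were expressed at a low level in these macrophages, and Efnb1 had more reads than any other of them. Of 866 counts for all 9 genes in the 8 libraries, Efnb1 held 47.1%, and Efnb1, Efnb2 and Epha4 together held 89.5%. Only these 3 genes had enough counts for a test between the genotypes. The 6 others had between 3 and 41 counts in all and are given as counts. As the plot of counts by library shows, Efnb2 varied most among the 3 tested genes relative to its mean, and WT 2 and WT 3 were its high libraries.

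**Figure D1:**
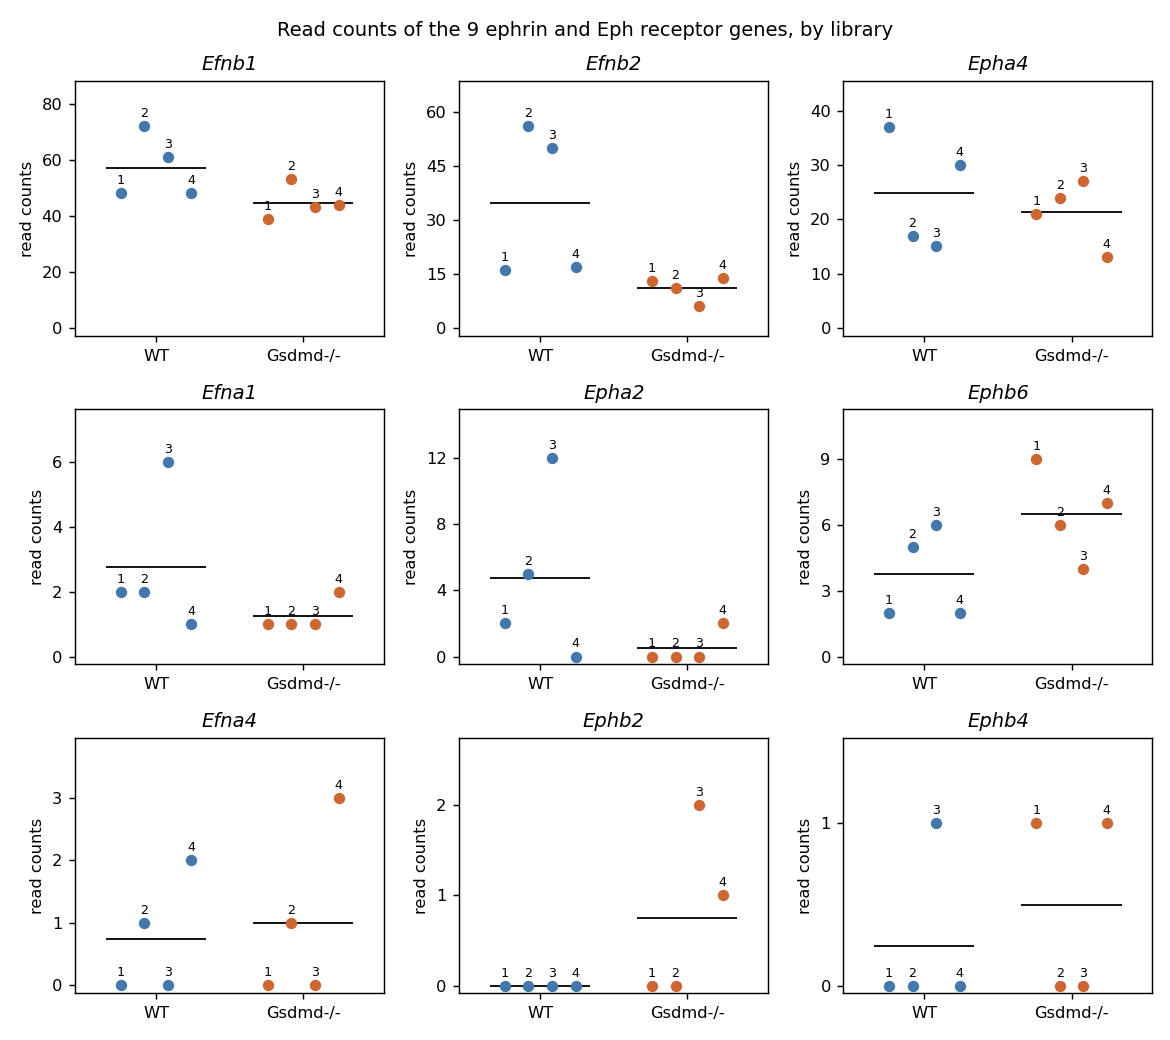
Read counts (vertical axis, not normalized, a separate scale for each gene) of the 9 genes in the 4 WT (blue) and 4 Gsdmd-/- (orange) libraries. Numbers beside the points are library numbers and horizontal lines are means. WT 2 and WT 3 had 56 and 50 counts of Efnb2, while the 6 other libraries had between 6 and 17.

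Levels of different genes were compared per length of exon, as CPM per kilobase. Efnb1 had the highest level of the 9 genes, with a mean of 0.907 CPM per kilobase, and lay above Efnb2 in each of the 8 libraries. Efnb2 (mean 0.204) and Epha4 (0.175) followed, and their ranges over the libraries overlapped. Efnb2 was above Epha4 in 3 of 8 libraries (WT 2, WT 3 and Gsdmd-/- 4), and its higher mean rests on WT 2 and WT 3. Below them came Ephb6 (0.0835), Efna1 (0.0673), Epha2 (0.0346) and Efna4 (0.0345), each overlapping the next. Ephb4 (0.00503) and Ephb2 (0.00192) were at the bottom. Even Efnb1 was low among the genes of these cells, at percentile 17.8 of the 12911 genes that could be tested, with Efnb2 at 3.15 and Epha4 at 2.40. The 4 ephrins made up 75.7% to 87.2% of the summed level of the 9 genes in WT and 72.5% to 80.9% in Gsdmd-/- libraries, so ligand transcripts outweighed receptor transcripts in both genotypes.

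**Figure D2:**
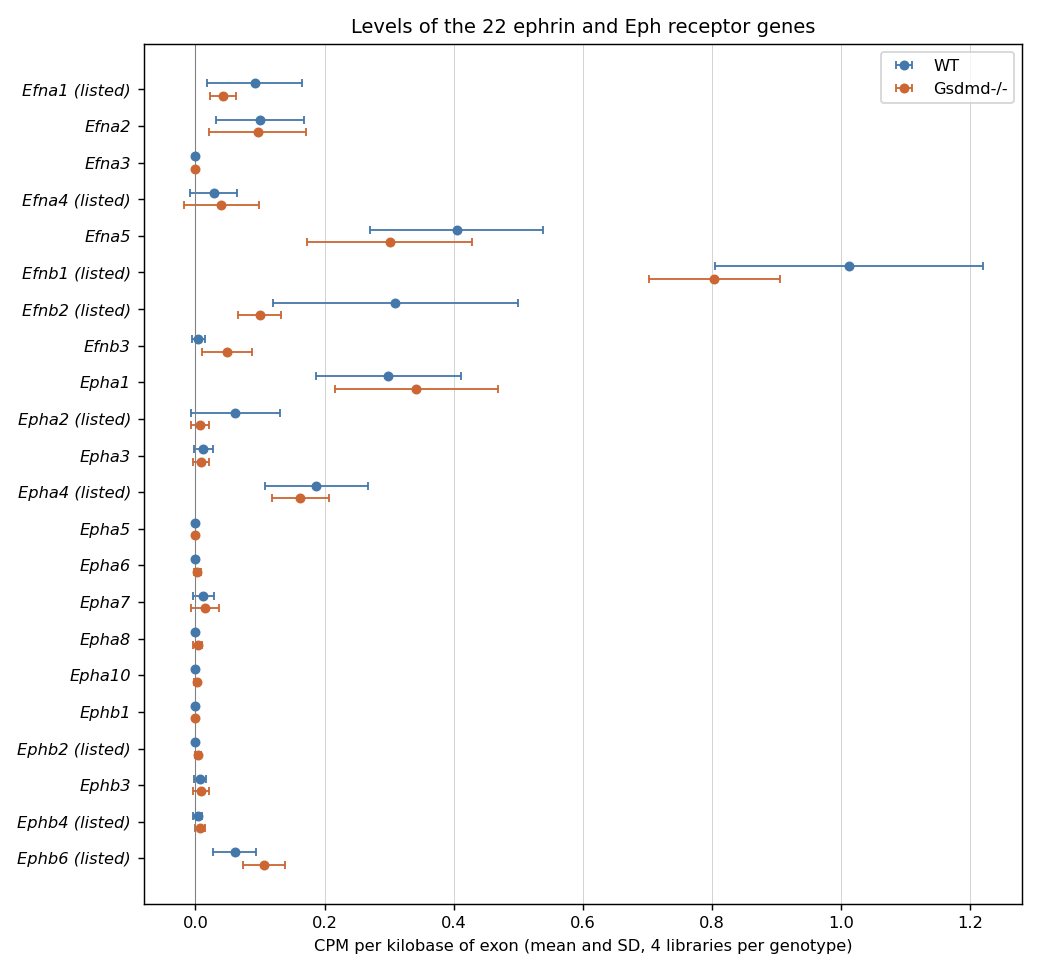
Levels of all 22 ephrin and Eph receptor genes in CPM per kilobase of exon (horizontal axis), as mean and SD of 4 WT (blue) and 4 Gsdmd-/- (orange) libraries, with the 9 genes described here marked as listed. Efnb1 was highest in both genotypes, at 1.01 ± 0.207 in WT and 0.803 ± 0.102 in Gsdmd-/- macrophages.

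To compare the genotypes, all 12911 genes with enough counts were fitted together with the quasi-likelihood test of edgeR. None of the 3 tested genes had a Benjamini-Hochberg adjusted p under 0.05, a threshold that 0.349% of all genes tested passed, and DESeq2, the edgeR exact test and limma voom also gave 0 of these genes. At the cutoff given with the study's volcano plot, which asks for p under 0.05 without adjustment and a log2 difference of 0.5 or more in either direction, Efnb2 was the 1 gene lower in Gsdmd-/- macrophages (3.28% of all genes) and 0 were higher (1.54% of all genes). Its libraries also did not overlap between the genotypes, as was the case for 7.6% of all genes. With 1 gene of 3, these counts say nothing about the families as a whole.

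Efnb2 (ENSMUSG00000001300, chromosome 8 from 8617434 to 8661242, minus strand, GRCm38) encodes ephrin-B2, the ligand of EphB4 and of other EphB receptors. In order of library number, 16, 56, 50 and 17 reads were counted in WT and 13, 11, 6 and 14 in Gsdmd-/- macrophages. WT 2 and WT 3 were high, and WT 1 and WT 4 were close to the Gsdmd-/- libraries. The mean level was 2.12 CPM ± 1.30 (SD, n = 4) in WT against 0.682 CPM ± 0.231 (SD, n = 4) without Gsdmd, and the lowest WT library (0.974 CPM) lay just above the highest Gsdmd-/- library (0.929 CPM). The log2 fold change was -1.63 (standard error 0.484, 95% interval -2.70 to -0.55), with an unadjusted p of 0.00695 and an adjusted p of 0.234 from the edgeR test. An exact permutation test of log2 CPM, two-sided, gave p = 0.0286, below which this design cannot go.

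The size of the Efnb2 difference depended on WT 2 and WT 3, which held 76.3% of its WT counts. Without both, the log2 fold change was -0.56 (standard error 0.407, unadjusted p = 0.203, edgeR) and the gene was no longer at the cutoff. With WT 2 alone left out it was -1.30 and with WT 3 alone left out -1.40. Within WT, the mean of WT 2 and WT 3 was 3.22-fold that of WT 1 and WT 4 (3.24 against 1.00 CPM), whereas the mean of WT 1 and WT 4 was 1.47-fold that of the Gsdmd-/- libraries. The plot of fold changes under each alternative shows Efnb1 closer to 0 and Epha4 farther from 0 without the pair.

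**Figure D3:**
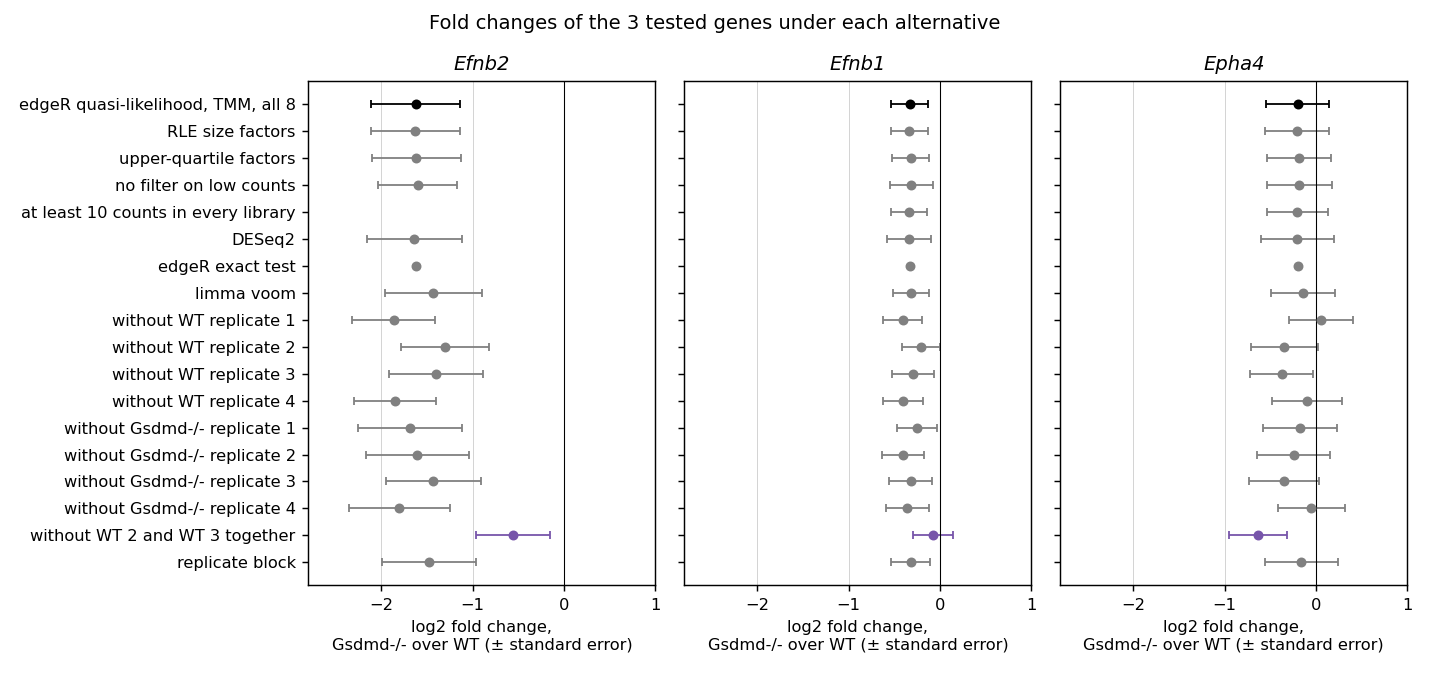
Log2 fold change of Gsdmd-/- over WT (horizontal axis, ± standard error where the test gives one) for Efnb2, Efnb1 and Epha4 under the reported fit (black), other settings (grey) and the fit without WT 2 and WT 3 (purple). Efnb2 lay between -1.87 and -1.30 in all settings but the last, where it was -0.56, and it was not tested when 10 counts were required in every library.

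Transcripts of other cell types were looked up beside Efnb2, since arterial endothelial cells are a known source of it. Tek and Sox17 were at 0 counts in all 8 libraries, and Emcn and Robo4 had at most 1 count in a library. Esam, an adhesion protein of endothelial cells and platelets, had 96 and 81 counts in WT 2 and WT 3 and 6 to 14 in the 6 others, and Tie1 had 31 and 30 against 2 to 10. Kdr, the main VEGF receptor of endothelial cells, went the other way, with 387 and 345 counts in WT 2 and WT 3 and 696 to 1316 in the others. Of all 10 endothelial markers listed, 5 were tested, and Esam and Cdh5 were lower in Gsdmd-/- macrophages at the unadjusted cutoff (3.28% of all genes). Cdh5, the gene of VE-cadherin, did not follow the pair, with 61, 88, 96 and 95 counts in WT and 47 to 70 in Gsdmd-/- libraries, and Egfl7 had 8, 2, 6 and 1 counts in WT and 1 to 4 in Gsdmd-/- libraries. Without WT 2 and WT 3, neither Esam (log2 fold change 0.95) nor Cdh5 (-0.38) was at the cutoff, and Tie1 was, as higher (1.86, with 3.05% of all genes). The summed level of all 10 was highest in WT 2 and WT 3, at 275 and 235 CPM, against 135 to 213 CPM in the 6 others. Most of it was Vwf, the gene of von Willebrand factor, with 3892 and 3298 counts in the pair and 1333 to 2215 in the others. Of the 6 dendritic cell markers 3 were tested, Clec9a was lower at that cutoff (log2 fold change -0.95, and -0.06 without WT 2 and WT 3), and the sum of all 6 was 52.4 and 48.5 CPM in WT 2 and WT 3 but 16.8 to 22.6 CPM in the 6 others. Most of it was Clec9a, with 803 and 741 counts in that pair and 244 to 290 elsewhere, while Zbtb46, with 37, 44, 37 and 51 counts in WT, and Ccr7, with 7, 0, 3 and 20, were not highest in that pair. Flt3, the growth factor receptor of dendritic cells, had 0 counts in 7 libraries and 2 in the other. Of the 9 stromal markers 2 were tested, and the sum of all 9 was 2.60 to 4.69 CPM in all libraries with Lum at 0. Pdgfra had 34 and 26 counts in WT 2 and WT 3 and 3 to 11 elsewhere. Other stromal markers were not high in that pair. Col1a1 and Col1a2 had 0 counts there and were highest in WT 4, with 18 and 15, and Lepr had 13 and 18 against 17 to 27. Other transcripts were lower in that pair. The sum of the 6 mast cell markers, mostly Kit, was 16.4 and 16.3 CPM in WT 2 and WT 3 and 53.5 to 80.4 CPM elsewhere, with Mcpt4 and Cma1 at 0 in all libraries. The sum of the 5 epithelial markers, nearly all Cdh1, was 10.3 and 8.24 CPM in the pair and 11.3 to 23.9 CPM elsewhere. Among the macrophage markers, Fcgr1 had 116 and 109 counts in the pair and 301 to 669 elsewhere, and Cd68 had 6777 and 6940 against 9359 to 13953. Lyz2 and Itgam were also lowest in the pair. The sum of all 8 macrophage markers, mostly Lyz2, was 15340 and 17239 CPM there and 19408 to 23464 CPM elsewhere. Others of that list were highest in the pair, with 4085 and 3472 counts of Mertk against 1630 to 2400, and 5227 and 5342 of Adgre1 against 3798 to 4784. The part of other cell types in the Efnb2 difference was not tested, and in bulk RNA fewer cells that express a gene and less RNA per cell cannot be told apart.

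Efnb1 (ENSMUSG00000031217, X chromosome from 99136130 to 99148991, plus strand) encodes ephrin-B1, the other ephrin-B ligand among the 9 genes. Its counts were 48, 72, 61 and 48 in WT and 39, 53, 43 and 44 in Gsdmd-/- libraries. WT 2 and WT 3 were again the highest, and the genotypes overlapped. The mean level was 3.49 CPM ± 0.714 (SD, n = 4) in WT against 2.77 CPM ± 0.350 (SD, n = 4) without Gsdmd, or -0.33 as a log2 fold change (standard error 0.203, edgeR adjusted p = 0.567). The 95% interval ran from -0.78 to 0.12, so that a decrease to 0.581 of the WT level and an increase to 1.09 of it both lay within it. Without WT 2 and WT 3 the log2 fold change was -0.08.

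The ratio of both ephrin-B transcripts carries the spread of Efnb2, which varied more between libraries than Efnb1. Per length of exon, Efnb1 was 5.96, 2.55, 2.42 and 5.61 times Efnb2 in WT 1 to 4, against 5.96, 9.57, 14.2 and 6.24 times in the Gsdmd-/- libraries. WT 1 and Gsdmd-/- 1 had the same ratio, and WT 2 and WT 3 had the lowest ones. The ratio in Gsdmd-/- 3 rests on 43 counts of Efnb1 and 6 of Efnb2, and no counting error was computed for these ratios.

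Epha4 (ENSMUSG00000026235, chromosome 1 from 77367185 to 77515088, minus strand) encodes a receptor that binds ephrins of both classes, A and B, and was the receptor with the highest level among the 9 genes. Its counts were 37, 17, 15 and 30 in WT and 21, 24, 27 and 13 in Gsdmd-/- libraries. Here WT 2 and WT 3 were the lowest WT libraries, the reverse of Efnb2 and Efnb1. The mean level was 1.51 CPM ± 0.639 (SD, n = 4) in WT against 1.31 CPM ± 0.355 (SD, n = 4) without Gsdmd, or -0.20 as a log2 fold change (standard error 0.348, 95% interval -0.97 to 0.57, edgeR adjusted p = 0.860). The genotypes overlapped, with an exact permutation p of 0.714. Leaving out WT 1 turned the sign (0.06), and leaving out WT 2 and WT 3 gave -0.64 (unadjusted p = 0.0768, edgeR).

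Among the genes with too few counts for the test, Epha2 (ENSMUSG00000006445, chromosome 4 from 141301240 to 141329384, plus strand), a receptor for ephrin-A1 that is best known from epithelial cells, had 2, 5, 12 and 0 counts in WT and 0, 0, 0 and 2 counts in Gsdmd-/- libraries. WT 2 and WT 3 were the highest libraries, as for Efnb2, and held 89.5% of the WT counts. Over the libraries of a genotype this was 19 against 2 counts, a ratio of Gsdmd-/- to WT of 0.107 with an exact binomial 95% interval of 0.0121 to 0.443 for counting error only. The ratio was 0.218 without WT 3 and 0.508 (0.0369 to 7.02) without WT 2 and WT 3, and both Gsdmd-/- counts came from library 4. The genotypes overlapped, and an exact permutation test of CPM, two-sided, gave p = 0.257. When all genes with a count were tested, the edgeR adjusted p was 0.472 (unadjusted p = 0.0212).

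Ephb6 (ENSMUSG00000029869, chromosome 6 from 41605482 to 41620509, plus strand) encodes a receptor without kinase activity of its own. It had 2, 5, 6 and 2 counts in WT and 9, 6, 4 and 7 counts in Gsdmd-/- libraries. This was the one gene among those with at least 10 counts with a higher sum in Gsdmd-/- libraries, 26 against 15, a ratio of 1.76 (exact binomial 95% interval 0.898 to 3.57, counting error only). The genotypes overlapped through WT 2 and WT 3, and the exact permutation test gave p = 0.143. Without that pair the ratio was 3.31 (interval 1.15 to 13.03), which rests on 4 WT and 26 Gsdmd-/- counts.

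Efna1 (ENSMUSG00000027954, chromosome 3 from 89271733 to 89281142, minus strand), the gene of ephrin-A1, had 2, 2, 6 and 1 counts in WT and 1, 1, 1 and 2 counts in Gsdmd-/- libraries, which overlapped (exact permutation p = 0.314). The ratio of Gsdmd-/- to WT was 0.461 with an interval from 0.126 to 1.44, and it was 0.762 without WT 3, which held 6 of the 11 WT counts, and 0.848 without WT 2 and WT 3. Efna4 (ENSMUSG00000028040, chromosome 3 from 89333390 to 89338028, minus strand), another ephrin-A gene, had 0, 1, 0 and 2 counts in WT and 0, 1, 0 and 3 counts in Gsdmd-/- libraries. Its exons share 168 bases with the antisense gene 4731419I09Rik, and since no source used here states a counting by strand, its few reads are uncertain.

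Ephb4 and Ephb2, both receptors for ephrin-B ligands, were at or near 0 counts. Ephb4 (ENSMUSG00000029710, chromosome 5 from 137350109 to 137378669, plus strand), the main receptor of ephrin-B2, had 1 count in WT 3, 1 in Gsdmd-/- 1, 1 in Gsdmd-/- 4 and 0 in the 5 other libraries. Its exons share 33 bases with Zan on the opposite strand, which had 0 to 9 counts per library, so these few reads are uncertain as well. Ephb2 (ENSMUSG00000028664, chromosome 4 from 136647539 to 136835988, minus strand) had 0 counts in all 4 WT libraries and 0, 0, 2 and 1 in the Gsdmd-/- libraries. A difference between the genotypes was not detectable at this depth for Efna4, Ephb2 and Ephb4, where no library had more than 3 counts.

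Of the 13 other genes of both families, only Efna5 and Epha1 were tested. Efna5, an ephrin-A gene, had 19, 39, 27 and 22 counts in WT and 12, 14, 25 and 26 counts in Gsdmd-/- libraries, which overlapped (log2 fold change -0.44, edgeR adjusted p = 0.687). Epha1 had 14, 16, 17 and 30 counts in WT and 33, 26, 14 and 15 in Gsdmd-/- libraries, with overlap as well (log2 fold change 0.20, edgeR adjusted p = 0.860). Efna3, Epha5 and Ephb1 had no count in any library, and the 8 remaining genes had between 1 and 27 counts in all. Among these, Efnb3, the remaining ephrin-B gene, had 0, 0, 0 and 1 counts in WT and 5, 0, 3 and 2 in Gsdmd-/- libraries, which overlapped. Its summed counts, 1 against 10, gave a ratio of Gsdmd-/- to WT of 10.2 (exact binomial 95% interval 1.44 to 440.5, counting error only), in the direction opposite to Efnb2 and Efnb1. This ratio rests on 1 WT count, and 5 of the 10 Gsdmd-/- counts came from library 1. An exact permutation test of CPM gave p = 0.143. Summed over the 22 genes, there were 733 counts in WT and 560 counts in Gsdmd-/- libraries. The ligands had 504 and 332 of these, and the receptors 229 and 228. Ligand counts were 175 and 150 in WT 2 and WT 3, while WT 1 and WT 4 had 86 and 93, within the range of 73 to 95 in the Gsdmd-/- libraries.

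The start regions of 4 genes are shown. Efnb2, Efnb1 and Epha2 were highest in WT 2 and WT 3, and among the WT libraries Epha4 was lowest there. All 9 genes were matched by symbol to RefSeq promoters (250 bases before to 50 after the start, GRCm38.p6). The sequences are written 5′ to 3′ along the strand of the gene, and capitals mark every match, on either strand, to 5 motifs. The GC box, where Sp factors bind, was searched as GGGCGG. The core promoter element bound by TBP was searched as TATAAA. For the cAMP response element the search used TGACGTCA, for AP-1 factors it used TGANTCA, and for RBPJ, the factor of the Notch pathway, it used TGGGAA. Each is a match of letters and not a shown site.
Efnb2, chr8:8661193-8661492, minus strand: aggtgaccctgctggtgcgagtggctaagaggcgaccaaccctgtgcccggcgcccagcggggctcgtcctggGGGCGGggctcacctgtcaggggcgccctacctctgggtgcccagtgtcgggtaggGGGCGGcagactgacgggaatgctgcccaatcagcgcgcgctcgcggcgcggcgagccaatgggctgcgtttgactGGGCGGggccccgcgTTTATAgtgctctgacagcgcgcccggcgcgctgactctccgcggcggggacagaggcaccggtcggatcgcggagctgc
Efnb1, chrX:99135811-99136110, plus strand: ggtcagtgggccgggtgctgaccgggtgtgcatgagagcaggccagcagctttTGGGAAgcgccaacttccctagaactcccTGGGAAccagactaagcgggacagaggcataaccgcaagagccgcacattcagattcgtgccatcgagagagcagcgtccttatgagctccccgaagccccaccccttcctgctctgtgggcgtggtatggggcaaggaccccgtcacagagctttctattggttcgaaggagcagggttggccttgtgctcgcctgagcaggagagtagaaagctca
Epha2, chr4:141300971-141301270, plus strand: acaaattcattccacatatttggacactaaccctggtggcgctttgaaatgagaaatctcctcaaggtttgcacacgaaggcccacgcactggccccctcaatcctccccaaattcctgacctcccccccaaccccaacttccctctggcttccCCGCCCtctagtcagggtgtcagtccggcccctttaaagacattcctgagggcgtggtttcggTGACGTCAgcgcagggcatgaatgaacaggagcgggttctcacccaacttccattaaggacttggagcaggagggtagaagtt
Epha4, chr1:77515039-77515338, minus strand: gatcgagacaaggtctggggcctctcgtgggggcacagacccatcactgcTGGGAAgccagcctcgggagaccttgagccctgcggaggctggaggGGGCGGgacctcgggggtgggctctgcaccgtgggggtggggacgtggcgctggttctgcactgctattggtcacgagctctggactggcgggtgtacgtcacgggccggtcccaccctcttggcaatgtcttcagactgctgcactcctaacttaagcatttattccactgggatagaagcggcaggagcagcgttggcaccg

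The Efnb2 region held 3 GC box matches and 1 TATA box match, and it was the only one of the 10 start regions of the 9 genes with a TATA box match. Of all 32851 promoters in the table, 35.7% held a GC box match and 13.6% a TATA box match. It also had 35 CG dinucleotides, against a median of 7, and 93.0% of promoters had fewer. The Epha2 region held 1 GC box match and 1 cAMP response element, which 1.79% of promoters held. The Epha4 region held 1 GC box match and 1 RBPJ match, found in 25.6% of promoters. An AP-1 match, in 7.81% of promoters, was found in none of the 10 regions. The Efnb1 region held 2 RBPJ matches and no other match. No motif searched here was common to the genes highest in WT 2 and WT 3, which were grouped by their values in these data. With so few genes and short motifs, this says nothing about shared regulation.

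Genes whose libraries followed the same order were found by Pearson's r of log2 CPM over the 8 libraries, which includes both genotypes and the high pair WT 2 and WT 3. For Efnb2, the closest of all genes tested were Zfyve27 (r = 0.991), Add1 (r = 0.985) and Gm47815 (r = 0.984). Zfyve27, which encodes protrudin, was at 58.5 and 57.6 CPM in WT 2 and WT 3 and at 34.8 to 42.5 CPM in the 6 others. Add1, which encodes the cytoskeletal protein adducin 1, was at 168 and 171 CPM in that pair and at 132 to 150 CPM in the others. For Efnb1 they were Fgf11 (r = 0.976), Espn (r = 0.968) and Inpp5a (r = 0.959), and for Epha4 they were Gm11878 (r = 0.948), Tmem171 (r = 0.937) and Mdk (r = 0.937). The genes of the first and second set were highest in WT 2 and WT 3. Of the third set, Tmem171 was lowest there (1.95 and 1.59 CPM, against 2.12 to 5.78 CPM), while Mdk was lowest in Gsdmd-/- 4, and Gm11878 was lowest in WT 3 but lower in Gsdmd-/- 1 and Gsdmd-/- 4 than in WT 2. All these r values are over the same 8 libraries and carry no test.

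The signalling partners of the family were expressed more widely than its ligands and receptors. Of 42 genes that act in Eph forward signalling (kinases, adaptors and other signalling proteins), 31 were tested, of 16 genes of ephrin-B reverse signalling 11, and of 17 genes for shedding and cleavage 14. The 3 lists share members, and of the 72 different genes 53 were tested. None of these had an adjusted p under 0.05 with the edgeR quasi-likelihood test or limma voom, 2 had one with DESeq2 (2.26% of all genes) and 2 with the edgeR exact test (1.91% of all genes), and 14 had an unadjusted p under 0.05 (12% of all genes). In forward signalling 25 genes lay below and 6 above 0 on the log2 scale (median -0.14). Of all genes tested, 6653 lay below and 6258 above 0 (median -0.01). Without WT 2 and WT 3, 21 forward signalling genes lay below and 10 above 0 (median -0.13). In reverse signalling 7 lay below and 4 above 0 (median -0.08), and without the pair also 7 and 4 (median -0.06). In shedding and cleavage 5 lay below and 9 above 0 (median 0.06), but without the pair 7 and 7, and the median turned to -0.04.

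**Figure D4:**
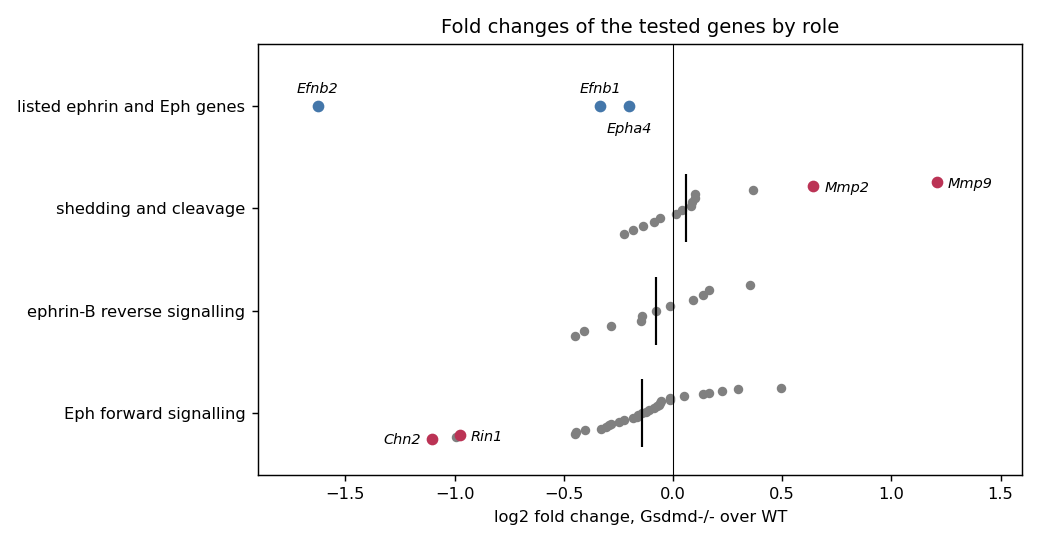
Log2 fold change of Gsdmd-/- over WT (horizontal axis) of every tested gene in 3 lists of pathway genes, ranked within a list, with vertical bars at the medians, and of the 3 tested ephrin and Eph receptor genes. Red points are the 4 pathway genes at the unadjusted cutoff, Chn2 and Rin1 below and Mmp2 and Mmp9 above 0.

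In the forward signalling list, Chn2 and Rin1, 2 of 31 genes, were lower in Gsdmd-/- macrophages at the unadjusted cutoff, which 3.28% of all genes met in that direction. Chn2 encodes a chimaerin, which switches off the GTPase Rac, and had 76, 195, 220 and 112 counts in WT and 58, 35, 94 and 86 counts in Gsdmd-/- libraries. WT 2 and WT 3 were its highest libraries, as for Efnb2 (log2 fold change -1.10, standard error 0.390, edgeR adjusted p = 0.306, and -0.42 without that pair). Rin1, whose product binds Ras and acts in endocytosis, had 17, 21, 18 and 12 counts in WT and 14, 9, 4 and 7 counts in Gsdmd-/- libraries (log2 fold change -0.98, standard error 0.370, edgeR adjusted p = 0.339). Without WT 2 and WT 3, neither was at the cutoff, with Rin1 still at -0.75 (unadjusted p = 0.152, edgeR), while Grb10 (higher, with 3.05% of all genes) and Tiam1 (lower, at -0.69, with 3.15% of all genes) were. Grb10, an adaptor of receptor kinases chosen here after its values were seen, had 76 and 90 counts in WT 2 and WT 3, 17 and 11 in WT 1 and WT 4, and 19 to 28 in the Gsdmd-/- libraries. Its log2 fold change was -0.99 with all libraries and 0.79 (unadjusted p = 0.0467, edgeR) without that pair.

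Of the 14 shedding and cleavage genes, Mmp9 and Mmp2 were higher at the unadjusted cutoff, which 1.54% of all genes met in that direction. Mmp9 encodes a secreted matrix metalloproteinase that can cut EphB2, and had 8, 6, 4 and 13 counts in WT and 17, 18, 13 and 23 counts in Gsdmd-/- libraries. Every Gsdmd-/- library was above every WT library in CPM (log2 fold change 1.21, standard error 0.385, edgeR adjusted p = 0.264), with WT 2 and WT 3 the lowest. Of all genes, 7.6% did not overlap between the genotypes. Mmp2 had 70, 45, 41 and 65 counts in WT and 129, 102, 61 and 52 counts in Gsdmd-/- libraries, which overlapped (log2 fold change 0.64, standard error 0.287, edgeR adjusted p = 0.409). Without WT 2 and WT 3 neither was at the cutoff (log2 fold changes 0.78 and 0.36). Aph1c was then higher at the cutoff (0.50), with 3.05% of all genes, and Mmp14 lower (-0.62), with 3.15% of all genes.

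The genes that DESeq2 and the edgeR exact test called were Anks1 and Sdcbp in both cases, and they are named here after their values were seen. Sdcbp encodes syntenin, a scaffold protein that binds the tail of ephrin-B ligands and of other membrane proteins. It had 14827, 13804, 13884 and 15138 counts in WT and 18053, 18615, 19366 and 16471 counts in Gsdmd-/- libraries, so that every Gsdmd-/- library was above every WT library. The log2 fold change was 0.35 (standard error 0.0819), with an adjusted p of 0.123 from the edgeR quasi-likelihood test, 0.000733 from DESeq2 and 0.0364 from the exact test. Anks1 encodes an adaptor that binds activated Eph receptors, and it had 692, 652, 647 and 622 counts in WT and 486, 520, 460 and 481 counts in Gsdmd-/- libraries. All Gsdmd-/- libraries were below all WT libraries, at -0.40 as a log2 fold change (standard error 0.0799), with an adjusted p of 0.0833 from the quasi-likelihood test, 0.00162 from DESeq2 and 0.0147 from the exact test. Unlike Efnb2, both kept their size without WT 2 and WT 3, with log2 fold changes of 0.30 for Sdcbp and -0.41 for Anks1. Both differences were smaller than the 0.5 that the unadjusted cutoff asks for. A full separation of the genotypes, as in both genes, was found for 7.6% of all genes.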

How the data were processed

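RNA of WT and Gsdmd-/- BMDMs (4 libraries each) was made into TruSeq libraries and sequenced by a company. The authors deposited 1 table of read counts per gene, not normalized, and the submitters' processing notes name the build mm10. The aligner, counting tool and strand setting are not given in the sources used here. All values were checked to be whole numbers, and each column was matched to its sample by label. Positions and exon lengths were taken from GENCODE M21 (GRCm38, the same build). Counts were scaled by TMM, filtered with filterByExpr and tested with the quasi-likelihood test of edgeR 4.0.16 (R 4.3.3). The test was two-sided and modelled genotype alone, with Benjamini-Hochberg adjustment over all 12911 genes tested. Log2 CPM use a prior count of 2. Levels between genes are CPM per kilobase of merged exons. Exact permutation tests, unadjusted, were run on 6 of the 9 genes (log2 CPM for tested genes, CPM for others with at least 10 counts). One is also given for Efnb3. Ratios of summed counts carry exact (Clopper-Pearson) 95% intervals.

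The scripts were tested on simulated data. Alternatives were RLE and upper-quartile scaling, no filter, 10 counts in every library, DESeq2 1.42.0, the edgeR exact test, limma 3.58.1 voom, leaving out libraries, and a block for the replicate number. The pathway lists and markers without WT 2 and WT 3, or by other tools, and count ratios with libraries left out were added after seeing the data. The 9 genes and all lists were chosen with earlier results of these data known. All 9 genes are described. Of the pathway lists, genes at the unadjusted cutoff are named. Genes of like pattern are the 3 with the highest r for the ephrin and the Eph receptor of highest level and for the tested gene with the smallest p.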

Additional observations from a re-analysis of the deposited data

Results flagged for a closer look

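In 14 groups of 4 libraries (7 genes, Gsdmd included, in both genotypes), a library far from the others was found in 2. Chance flags about 1 group in 20 of continuous values, a rate that does not hold for counts this low. In Gsdmd-/- macrophages, Efna1 was at 0.133 CPM in library 4 and at 0.0591 to 0.0634 CPM in the 3 others, which is 2 counts against 1. Epha2 was at 0.133 CPM in Gsdmd-/- library 4, again 2 counts, and at 0 in the 3 others. Where the 3 other libraries have the same count, any different count in the remaining one passes this limit, so neither value shows that the library differs.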

How the results depend on the processing

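No ephrin or Eph receptor gene of the 9 had an adjusted p under 0.05 in any of the 17 alternatives. At the unadjusted cutoff there was 1 gene, Efnb2, in the reported fit. There were 2 without a filter on low counts, where Epha2 joined it, and 0 when every library had to reach 10 counts, where Efnb2 could not be tested. There were also 0 without WT 2 and WT 3 together. Leaving out 1 library at a time left 1 gene in each fit. The log2 fold change of Efnb2 ran from -1.87 to -1.30 with 1 library left out, with adjusted p between 0.0872 and 0.514, and the lowest adjusted p of any alternative was 0.0628, from DESeq2 and from the edgeR exact test alike. That of Epha4 was 0.0592 without WT 1, a reversed sign, and ran from -0.38 to 0.06 over these fits. That of Efnb1 ran from -0.41 to -0.21, and that of Gsdmd, past the threshold throughout, from -2.29 to -2.08. After the mean of each genotype was subtracted from log2 CPM, same-numbered libraries correlated at 0.027, 0.182, 0.041 and -0.201. These values show no pairing by replicate number, but with so few libraries they cannot exclude one. With the replicate block, the value for Efnb2 was -1.48 (adjusted p = 0.432), and it stayed at the unadjusted cutoff, and over all genes the calls at an adjusted p under 0.05 went from 18 higher and 27 lower to 9 and 16. The same calls over all genes were 105 and 187 with DESeq2, 92 and 154 with the edgeR exact test, 44 and 65 without a filter, and 53 and 108 without WT 2 and WT 3. With 1 library left out they ran from 8 and 6 (without WT 3, Gsdmd-/- 1 or Gsdmd-/- 3) or 9 and 5 (without Gsdmd-/- 2) to 28 and 56 (without WT 4). At this depth, 6 of the 9 genes had too few counts for a test. Of the 53 tested pathway genes, 0 had an adjusted p under 0.05 in the reported fit and with limma voom, and 2 with DESeq2 and with the edgeR exact test, which was compared after seeing the data. For genes below the filter, the ratio of summed counts for Epha2 was 0.218 without WT 3, 0 without Gsdmd-/- 4 and 0.508 without WT 2 and WT 3, also computed after seeing the data.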
